A study of Danio rerio with 2 samples.

Results

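The 5 Mb stretches of the zebrafish genome with the most accessible places at 4 h post fertilization (hpf) are described here through the ATAC-seq peaks that lie in them. Chromosomes 1 to 25 without chromosome 4 were divided into 242 full bins of 5 Mb from position 0, and a bin was called peak-rich when it held at least 450 peak summits. Of these bins, 17 were peak-rich, on 11 chromosomes. Their members are the 8066 peaks that lay over 1 Mb from position 0 and from the end of the last peak of the chromosome, out of 77524 peaks on these 24 chromosomes and 84715 in the whole list. The interior peaks of the 225 other bins, 62419 in number, serve for comparison.

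The embryos were wild type (WT Tubingen), untreated and taken whole at 4 hpf, with about 300 embryos per tube and 2 biological replicates, and they carry no allele or agent beyond this. Whole embryos mix all their cells, so a peak may be open in many cells or in few. Both replicates were pooled by the authors into 1 peak list. Replicates cannot be compared from such a list, and how deeply each was sequenced is unknown. The bins were chosen by their counts of summits, which are given as a description with no test. Bins and peaks are places in 1 list and not replicates, so no test was run on the other measures either. Measures taken per bin are mostly set against the spread between bins. Values pooled over peaks, gaps, windows or joined regions are given without such a spread.

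In ATAC-seq a transposase inserts sequencing adapters where DNA is not covered by nucleosomes or other proteins, and a peak marks a place with many insertions. Such places are largely promoters and enhancers, and fragments shorter than a nucleosome mark the spots where transcription factors can sit. At 4 hpf the zebrafish genome has recently begun to be transcribed, a step in which the maternally supplied factors Pou5f3, Nanog and Sox19b are known to open chromatin. Genes are spread unevenly along vertebrate chromosomes, and regulatory elements are often grouped around developmental genes. No gene annotation or sequence of Zv10, the assembly of the list, was used here, so stretches are given by position and no gene, promoter or motif is named.

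The 17 bins held 7.03% of the bins and 11.6% of the summits in full bins. Chromosome 9 had 3 of them, from 30000001 to 35000000 with 603 summits, from 1 to 5000000 with 568 and from 20000001 to 25000000 with 523. The bin between the first and the last of these, at 25 to 30 Mb, held 428 summits, and the bin at 15 to 20 Mb held 416. Counts on chromosome 9 were thus high from 15 to 35 Mb, though not every bin reached the limit. Chromosome 18 had the bin with the second highest count, 588 summits from 30000001 to 35000000, and another with 468 from 20000001 to 25000000. Between them the bin at 25 to 30 Mb held 355. Chromosome 22 had 537 summits from 1 to 5000000. On chromosome 3, adjacent bins held 516 summits from 30000001 to 35000000 and 492 from 35000001 to 40000000. Chromosome 12 had 3 bins, with 497 summits from 15000001 to 20000000, 474 from 1 to 5000000 and 459 from 10000001 to 15000000. The bin from 10 to 15 Mb and the bin from 15 to 20 Mb touch each other, as the pair on chromosome 3 does.

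Each of the 6 other chromosomes had 1 such bin. These lay on chromosome 1 from 25000001 to 30000000 with 506 summits, on chromosome 20 from 25000001 to 30000000 with 494, on chromosome 2 from 30000001 to 35000000 with 474 and on chromosome 14 from 30000001 to 35000000 with 471. Chromosome 7 and chromosome 5 had 453 each, both from 20000001 to 25000000, and were the bins just inside the limit. Just outside it were chromosome 18 from 15000001 to 20000000 with 445 summits, chromosome 21 from 1 to 5000000 with 440 and chromosome 15 from 1 to 5000000 with 433. The first of these adjoins a peak-rich bin of its chromosome. Of the 17 bins, 3 began at position 0 and none was the last full bin of its chromosome. The ends are not treated alike, since the outer 1 Mb at the far end often falls in the incomplete bin that was left out.

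**Figure D1:**
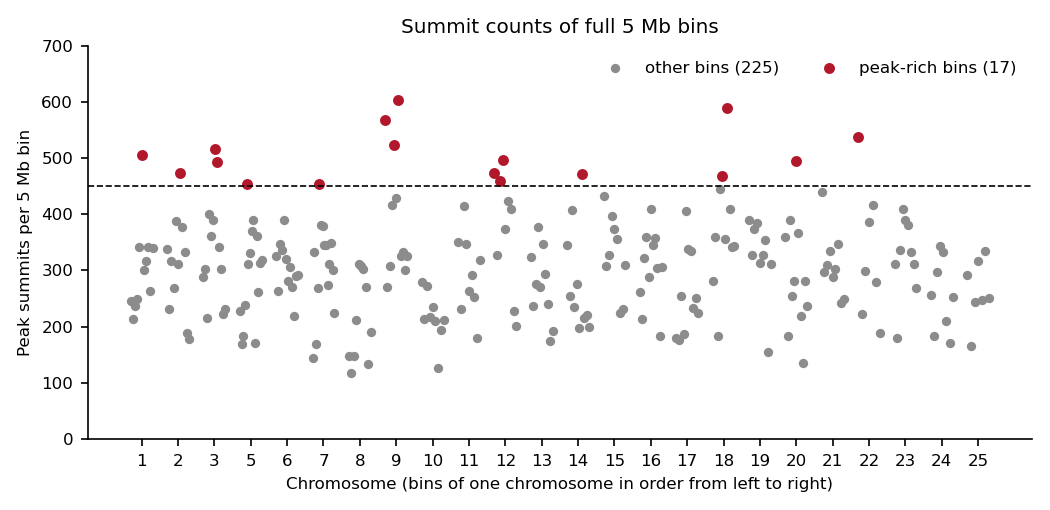
Number of peak summits in each of the 242 full 5 Mb bins, by chromosome, with bins of a chromosome in order from left to right. The dashed line is the limit of 450, the 17 red points reach 453 to 603 and the 225 grey points 117 to 445.

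Full bins beside these stretches that are not peak-rich lie below the limit by definition. None of them was as low as the poorest bin, which held 117 summits. On 27 sides, a peak-rich bin adjoined a full bin that is not peak-rich itself. A bin that lies between peak-rich bins, as on chromosomes 9, 12 and 18, is counted for each side. Over these sides the neighbour held 198 to 445 summits, with a median of 341, against 300 over all 225 other bins. On 20 of the 27 sides it held at least 300. The bins counted for both sides held 428, 327 and 355 and enter the 20 more than once. Of all 225 other bins, 98 held 300 to under 400 summits and 15 held 400 to under 450. The neighbours were not set against other bins of the same chromosome. On chromosome 14 both bins beside the one with 471 summits were low, with 198 and 216, and on chromosome 22 the count went from 537 to 223.

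The 3 bins at the start of a chromosome owed part of their count to the outer 1 Mb, whose peaks are not members. That outer part held 180 summits on chromosome 9, 169 on chromosome 12 and 161 on chromosome 22, which adds up to the 510 peaks of these bins that were left out. Over the remaining 4 Mb, chromosome 9 had 97.0 peaks per Mb and chromosome 22 94.0, still above the 90 per Mb that the limit stands for. Chromosome 12 at 0 to 5 Mb had 76.3, below it, and reached the limit only with its outer part. The 14 bins that lie wholly inside ran from 90.6 peaks per Mb on chromosomes 5 and 7 to 121 on chromosome 9 at 30 to 35 Mb. Over all 82.0 Mb of interior length the members numbered 98.4 per Mb, against 56.7 in the other bins, 1.73 times as many.

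Inside these stretches the peaks were not spread evenly. In the 820 windows of 100 kb that lie whole in the interior of the peak-rich bins, the median was 9 summits, with 5 at the 25th percentile and 13 at the 75th. In the 11002 such windows of the other bins these values were 5, 2 and 8. Windows with at least 15 summits made up 20.0% in the peak-rich bins and 4.94% elsewhere, while windows with 5 or fewer made up 25.2% and 57.8%. A window with no summit was found 6 times, 0.732% of windows, against 5.50% in the other bins. High windows were therefore common in these bins, and the low ones were fewer but did not disappear. Higher counts per window, here and on the scale of 1 Mb, follow from the choice of dense bins and are given as a description.

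On the scale of 1 Mb, 51 of the 82 interior windows of the peak-rich bins held at least 90 summits, or 62.2%, against 112 of 1098 in the other bins, or 10.2%. Chromosome 9 at 30 to 35 Mb was the only peak-rich bin in which every 1 Mb window reached 90, with 104 in the lowest and 157 in the highest. The highest single 1 Mb window, with 174 summits, lay in chromosome 18 at 30 to 35 Mb, where the lowest held 73. Other bins were made of dense and sparse parts. On chromosome 5 at 20 to 25 Mb the windows ran from 39 to 140, on chromosome 14 from 42 to 133, on chromosome 2 from 45 to 133 and on chromosome 22 from 45 to 143. In all, 5 of the 82 windows lay below the median of the other bins, 53.

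**Figure D2:**
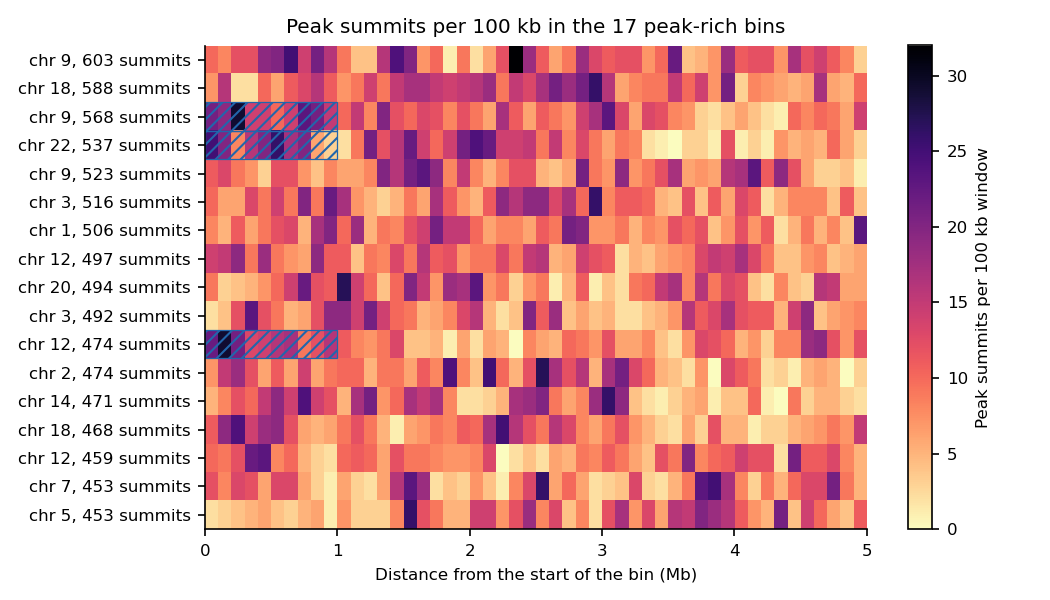
Peak summits per 100 kb window along the 17 peak-rich bins, ordered by their count, with distance from the start of the bin on the horizontal axis and the count as colour. The hatched first 1 Mb of 3 bins is not part of the members, and the darkest interior window, with 32 summits, lies in the top row.

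In the 3 bins with the most summits, the fullest 100 kb windows of the interior were as follows. On chromosome 9 the window from 32300001 to 32400000 held 32 summits, with a median score of 99, a highest score of 2465 and a median width of 900 bp. On chromosome 18 the window from 32900001 to 33000000 held 26 summits, with a median score of 100, a median width of 645 bp and no score above 394. On chromosome 9 from 3000001 to 3100000 there were 23 summits, with a median score of 150, a highest score of 2451 and a median width of 720 bp. The fullest windows thus ranged from places with some strong peaks to a place made of weak and narrow ones. Among the interior windows of the other bins, up to 39 summits were found in 100 kb, so that the fullest single windows were not those of the peak-rich bins.

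The unevenness of a bin was measured as the variance of its 100 kb counts over their mean, which would be near 1 for places strewn at random. It had a median of 3.35 in the 17 bins, from 1.96 to 5.07, and of 3.06 in the 225 others, from 1.48 to 7.81. The difference of 0.29 was smaller than the standard deviation between peak-rich bins, 0.94. Spearman's rho between the summit count and this measure was 0.20 over 242 bins and 0.22 over the 225 others. How far the difference follows from the choice of dense bins was not tested. Chromosome 14 at 30 to 35 Mb, chromosome 7 at 20 to 25 Mb and chromosome 22 at 0 to 5 Mb were the least even of the 17, at 5.07, 4.80 and 4.76. Chromosome 12 at 15 to 20 Mb was the most even, at 1.96, with 19 summits in its fullest window and 77 to 127 in its 1 Mb windows.

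Short gaps between neighbouring peaks follow from the choice of dense bins, and their values are given as a description. The median gap from the end of a member to the start of the next in the same bin was 4320 bp over 8049 gaps, against 6850 bp over 62194 gaps in the other bins. By bin, medians ran from 3390 bp on chromosome 14 to 6600 bp on chromosome 12 at 0 to 5 Mb. The sets differed most among long gaps. Gaps over 25 kb made up 8.68% among members and 19.8% elsewhere, and gaps over 50 kb 2.20% and 7.82%. Gaps under 1 kb made up 18.5% and 15.5%. The smallest gap was 260 bp in both sets. The longest gap among members, 245920 bp, lay on chromosome 22 at 0 to 5 Mb, and the next, 173840 bp, on chromosome 12 at 10 to 15 Mb.

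Each gap was also divided by the mean gap of its bin. The median was then 0.48 among members and 0.44 elsewhere, the 75th percentile 1.20 and 1.23, and the 90th percentile 2.49 and 2.60. At the 10th percentile the members stood higher, 0.0558 against 0.0364, and at the 25th likewise, 0.1647 against 0.1265. In bp the 5th percentile was 340 in both sets, and the 10th was 500 among members and 560 elsewhere. The mean gap was 9095 bp and 16500 bp. In bp the 25th percentile was 1480 among members and 1960 elsewhere. How far division by the smaller mean of dense bins raises the low end among members was not tested. No difference in spacing is read from these values. The standard deviation of the gaps over their mean had a median of 1.45 in the peak-rich bins and 1.48 in the others, a difference of 0.03 against a standard deviation of 0.16 between peak-rich bins.

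**Figure D3:**
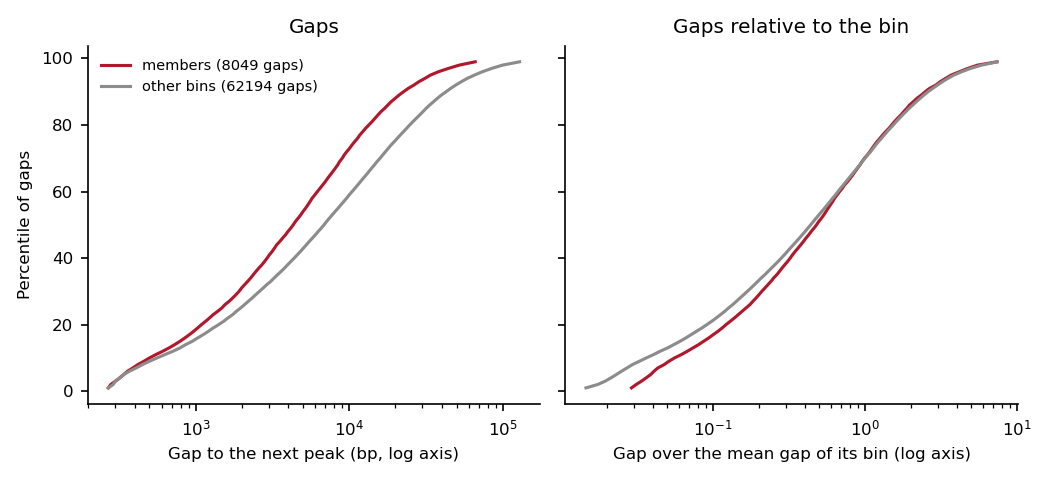
Percentiles 1 to 99 of the gaps between neighbouring peaks of a bin, in bp on the left and divided by the mean gap of the bin on the right, both on log axes. Members (red) reach their median at 4320 bp and the other bins (grey) at 6850 bp, while the curves on the right lie close together from the median upwards.

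Joining of peaks with gaps of at most 12.5 kb gave 1755 regions in the peak-rich bins. Larger joined regions, like short gaps, follow from the choice of dense bins. Regions with at least 10 peaks numbered 193 and held 45.3% of the members, against 22.7% of the interior peaks of the other bins. Peaks that stayed alone were 6.91% of the members and 16.9% of the others. Each of the 17 bins had several of the large regions, from 3 on chromosome 12 at 0 to 5 Mb to 17 on chromosome 14. In the other bins the largest region held 73 peaks, more than any among members. The largest among members, with 71 peaks over 354 kb, lay on chromosome 3 from 35926351 to 36280000, and peaks covered 16.9% of it. It was followed by 1 with 69 peaks over 303 kb on chromosome 22 from 1904941 to 2208270. Chromosome 9 at 30 to 35 Mb had 3 regions of at least 50 peaks, from 30548101 to 30775270, from 31370011 to 31562530 and from 32281761 to 32459820, which held 55, 50 and 50. Peaks covered 29.7%, 23.9% and 30.6% of these. The joined regions named here were chosen after their values were seen.

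Pooled over all chromosomes, the members did not score higher than other peaks. Scores are those the authors' peak caller wrote, on a scale that is not named, from 20 upwards. The median score was 125 among members, with a middle 50% from 76 to 254, and 129 in the other bins, from 78 to 276. The 95th percentile was 977 against 1031. By bin, the median score had a median of 123 in the 17 peak-rich bins and 129 in the 225 others. The difference of -6 was well under the standard deviation of 17.7 between peak-rich bins. The lowest bin medians were 99 on chromosome 12 at 0 to 5 Mb and 105 on chromosome 9 at 0 to 5 Mb and chromosome 12 at 10 to 15 Mb. The highest were 164 on chromosome 14, 151 on chromosome 3 at 30 to 35 Mb and 144 on chromosome 20. None of the 17 lay above the 95th percentile of the other bins, 165, and 1 lay below the 5th, 105.

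The chromosomes that hold these bins differ in their own score level, so the members were also set against the other bins of the same chromosome. The median score of members was then higher on 7 of 11 chromosomes, the same on 3 and lower on 1. The differences ran from -32 on chromosome 1, where the members had 116 and the other bins 148, to 40 on chromosome 14, with 164 against 124. On chromosome 9 the values were 117 and 105, on chromosome 20 144 and 131, and on chromosome 22 139 and 126. Chromosomes 3, 12 and 18 had equal medians, at 138, 105 and 113. Scores lie on a coarse scale, as every bin median of chromosome 12 was 99, 105 or 111. Equal medians and small differences are limited by these steps. Within chromosomes, a lower median of members was thus seen only on chromosome 1. The share scoring at least 500 was higher among members on 7 chromosomes and lower on 4.

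**Figure D4:**
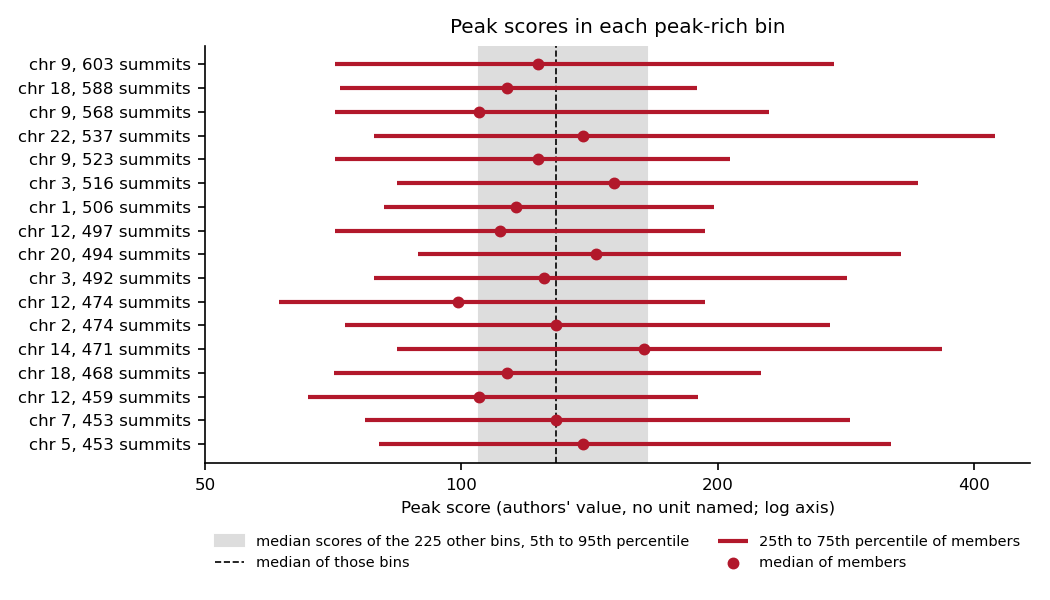
Median score (point) and 25th to 75th percentile (line) of the members of each peak-rich bin, on a log axis, with the 5th to 95th percentile of the medians of the 225 other bins in grey and their median of 129 as a dashed line. The 17 medians run from 99 to 164 and lie on both sides of the dashed line.

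The excess of peaks was found at nearly all score levels. An excess as such follows from the choice of dense bins, and these ratios are given as a description. Over all peaks the ratio was 1.73. Members scoring under 60 numbered 13.6 per Mb against 7.71 in the other bins, 1.77 times as many. The ratio was 1.84 for scores from 60 to 100, 1.75 from 100 to 200, 1.63 from 200 to 500, 1.66 from 500 to 1000, 1.58 from 1000 to 2000 and 1.57 from 2000 to 10000. Pooled over chromosomes, the ratio was thus a little larger among weak than among strong peaks. Chromosomes differ in score level, and the ratios were not compared within chromosomes. Within them, the share scoring at least 500 was higher among members on 7 and lower on 4. The exception to the excess was the highest class. Peaks scoring at least 10000 were 9 among the members and 121 in the other bins, 0.110 per Mb in both. When bins were ranked by peaks scoring under 200 per Mb, 12 of the 17 peak-rich bins had rank 17 or better, 1 of them in a tie at rank 17 with a bin that is not peak-rich. When bins were ranked by peaks scoring at least 200, 9 had rank 17 or better. Peaks scoring under 200 were 68.9% of the members, so the ranking by them largely repeats the count that chose the bins. The 12 and the 9 are therefore not on an equal footing. Chromosome 3 at 30 to 35 Mb had the most of the latter of all 242 bins, 41.0 per Mb, followed by chromosome 14 at 30 to 35 Mb with 39.2 and chromosome 9 at 30 to 35 Mb with 38.6. Chromosome 18 at 30 to 35 Mb, with 90 per Mb, had the most peaks scoring under 200 but only 27.6 scoring at least 200.

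Scores differed far more between peaks of a bin than between bins. Differences between bins made up 1.85% of the variance of log2 score among members and 2.31% among peaks of the other bins. The spread inside a bin was taken as the interquartile range of log2 scores. Its median was 1.85 for the peak-rich bins and 1.81 for the others, with standard deviations between bins of 0.29 and 0.28. The peak-rich bins differed among themselves in this. The widest spread, 2.42, was on chromosome 22 at 0 to 5 Mb, the 5th highest of all 242 bins, where the middle 50% of scores ran from 79 to 423 and 21.3% of members scored at least 500. Chromosome 14 followed with 2.13, with 19.5% scoring at least 500. The narrowest, 1.29, was on chromosome 1 at 25 to 30 Mb, where the middle 50% ran from 81 to 198. Chromosome 18 at 30 to 35 Mb had 1.39 and chromosome 12 at 15 to 20 Mb 1.44. In these bins 10.5%, 6.46% and 8.05% of members scored at least 500, against a median of 14.0% in the other bins. Among peaks of the other bins of the same chromosomes the share was 15.2% on chromosome 1, 9.30% on chromosome 18 and 10.8% on chromosome 12. Their spread of log2 scores was 1.81, 1.65 and 1.70. A low share was thus not particular to the stretches on chromosomes 18 and 12. Chromosome 1 was low at the bottom of the scale too, since 6.92% of its members scored under 60, against 10.4% to 18.4% in the other 16 bins. This was not particular to the stretch. The other bins of chromosome 1 had 6.31% to 10.4%, against a median of 13.5% over the 225 other bins.

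High-scoring members and unevenness went together over the 17 bins. Spearman's rho between the share of members scoring at least 500 and the variance over mean of the 100 kb counts was 0.82 over the 17 peak-rich bins and 0.38 over the 225 others. For the median score in place of the share it was 0.80 and 0.26. These correlations were computed after the values were seen. They are given without a test, since bins share 1 list, 1 depth and 1 peak call, and 17 points can take such values through a few of them. The 17 bins also lie on only 11 chromosomes, which differ in score level, and this was not taken out. The bins on chromosomes 14 and 22 were high in both measures, and those on chromosome 12, chromosome 1 and chromosome 18 at 30 to 35 Mb were low in both. Chromosome 7 stood high mainly in unevenness, at 4.80, with 15.5% scoring at least 500. Chromosome 3 at 30 to 35 Mb was an exception, with 18.8% scoring at least 500 and an unevenness of 2.88.

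Members were slightly wider than other peaks. Their median width was 750 bp, with a middle 50% from 590 to 1070 bp, against 720 bp, from 580 to 1020 bp. Peaks wider than 1 kb made up 28.2% of members and 25.8% of the others. By bin, this share had a median of 28.3% in the peak-rich bins and 24.5% in the others, and it was above the latter value in 14 of the 17. The difference of 3.82 percentage points was smaller than the standard deviation of 4.07 between peak-rich bins. On the same chromosome the share of members was higher on 10 of 11, by 2.10 points at the median, and lower by 2.41 points on chromosome 22, with 23.4% against 25.8%. The median width was higher on 10 of 11 chromosomes and the same on 1, with the largest difference, 80 bp, on chromosome 1.

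The share of wide peaks was also higher in fuller bins below the limit, though not in every step. Bins with under 150 summits had a median of 23.1% of peaks wider than 1 kb, those with 150 to under 300 also 23.1%, those with 300 to under 400 26.05%, those with 400 to under 450 26.9% and those with at least 450 28.3%. Spearman's rho between the count and this share was 0.36 over 242 bins, and 0.34 over the 225 that are not peak-rich. Over the same bins rho between the count and the median score was -0.13 and -0.11. The excess of members was likewise larger among wide peaks, at 1.61 times the density of the other bins for widths up to 600 bp and 1.91 times for widths of 1 to 2 kb. For widths of 2 to 5 kb and over 5 kb it was 1.84 times each. The 78 members over 5 kb were unevenly spread, and their ratio is not a trait of every peak-rich bin. By bin their number had a median of 3 in the peak-rich bins and 2 in the others. In 4 peak-rich bins there were 10 to 17 of them, and 5 peak-rich bins lay below the median of the others. The ratio without those with 10 to 17 was not computed.

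**Figure D5:**
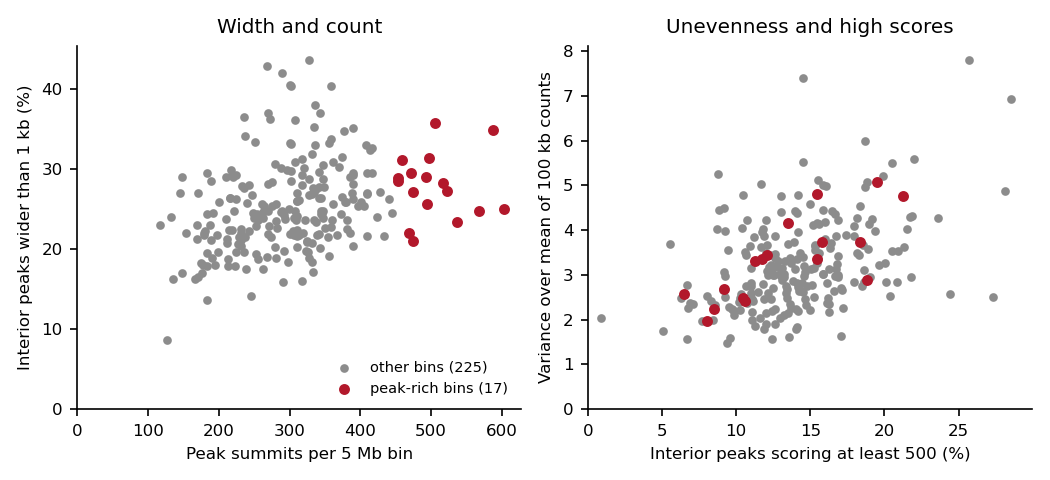
Each point is 1 of the 242 bins. Left, the share of interior peaks wider than 1 kb against the summit count, with a median of 28.3% in the peak-rich bins (red) and 24.5% in the others (grey). Right, the variance over mean of 100 kb counts against the share of peaks scoring at least 500, where the red points rise from lower left to upper right.

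The bins with the largest shares of wide peaks were among those with a narrow range of scores. Chromosome 1 at 25 to 30 Mb had 35.8% of members wider than 1 kb, chromosome 18 at 30 to 35 Mb 34.9%, and chromosome 12 31.4% at 15 to 20 Mb and 31.2% at 10 to 15 Mb. Chromosome 12 at 0 to 5 Mb, chromosome 18 at 20 to 25 Mb and chromosome 22 had the lowest shares, 21.0%, 22.01% and 23.4%. Over the 17 bins rho between the spread of scores and the share of wide peaks was -0.39, which is weak at this number of points.

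Closeness of a neighbour was related to score and width among members as it was elsewhere. Members with a neighbour under 1 kb away had a median score of 142 and a median width of 830 bp, and those with no neighbour within 12.5 kb had 98 and 680 bp. In the other bins the values were 149 and 850 bp, and 106 and 660 bp. In each class of distance, pooled over chromosomes, the members scored lower than the peaks of the other bins. Chromosomes differ in score level, and these classes were not compared within chromosomes. A near neighbour was more frequent among members, as 31.96% had one under 1 kb away against 27.0%, which also follows from the choice of dense bins. Scores of adjacent members less than 1 kb apart had a Spearman's rho of 0.25 over 1487 pairs, against 0.35 over 9667 pairs in the other bins. At 1 to 5 kb it was 0.15 in both sets. These pairs share peaks and 1 list, and the values are not tested. Wider peaks scored higher to the same degree in both sets, with rho of 0.38 and 0.37 between score and width.

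Peaks covered a median of 9.36% of the interior length of the peak-rich bins, from 6.56% on chromosome 12 at 0 to 5 Mb to 15.01% on chromosome 18 at 30 to 35 Mb, against 5.47% in the other bins. A higher coverage follows in part from the count that chose the bins, and the values are given as a description. The coverage on chromosome 18 was the highest of all 242 bins, and chromosome 12 at 10 to 15 Mb, at 11.99%, was second. Both held long blocks. Peaks wider than 5 kb numbered 17 and took 116 kb on chromosome 18, and 10 of them took 150 kb on chromosome 12. Without peaks wider than 5 kb the coverage of these bins was 12.7% and 8.98%, and the medians were 8.85% in the peak-rich bins and 5.21% in the others. No peak wider than 5 kb lay in the members on chromosome 14 or chromosome 22.

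The widest members were a peak of 68.5 kb on chromosome 3 from 38870071 to 38938520, with a score of 8424, and 2 peaks that lie beside each other on chromosome 12. These were 44.3 kb wide from 14293061 to 14337360, with a score of 11315, and 62.1 kb wide from 14342201 to 14404320, with a score of 8713. Such blocks are far longer than the fragments of 30 to 120 bp from which the peaks were called.

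The members scoring at least 10000 lay in 5 of the 17 bins and were grouped. Of the 9, 3 lay within 25.3 kb on chromosome 18, from 31590301 to 31615640, with scores of 12453, 33799 and 49756. On chromosome 20 the highest score of all members, 55278, was from 25929721 to 25933380, and a peak scoring 15048 lay from 25858901 to 25863890. Chromosome 12 had scores of 10876 and 11315 side by side from 14287651 to 14337360. Single peaks of this level lay on chromosome 9 from 20172361 to 20178390, with a score of 24038, and on chromosome 7 from 21570001 to 21572330, with a score of 23919. The 9 peaks held 10.05% of the summed score of the members. The members held 7.25% of the summed score of all interior peaks, and 10.9% when peaks scoring at least 10000 were left out of both sets, which is close to their 11.4% of the peaks. A single random placement was kept for reads with several matches, so a score can hold reads from other copies of a sequence, and the part of this in these scores was not tested.

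In the 12 bins without such a peak, the highest-scoring member was 500 bp to 2.85 kb wide, except for the block of 68.5 kb on chromosome 3. On chromosome 1 the highest was 7034, from 29975711 to 29978100, with 3473 for the next. On chromosome 12 at 15 to 20 Mb it was 5034, from 15123081 to 15123670, with 1715 for the next. On chromosome 12 at 0 to 5 Mb it was 3893, from 3377271 to 3379480, on chromosome 18 at 20 to 25 Mb 3443, from 20235661 to 20238510, and on chromosome 2 3428, from 34636571 to 34638280. In the remaining bins the top was lower. It was 3242 on chromosome 14 from 31225301 to 31227810, 2410 on chromosome 5 from 23698611 to 23699350 and 2358 on chromosome 3 from 30117101 to 30118900. On chromosome 9 it was 2465 from 32367531 to 32369390 and 2451 from 3048011 to 3048510, the latter a peak of the narrowest width in the list, 500 bp. On chromosome 22 the highest was 2050, from 1964891 to 1966120, although this bin had the largest share of members scoring at least 500.

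Bins just below the limit looked much like those above it. The 15 bins with 400 to under 450 summits held 5969 interior peaks, with a median score of 123, a median width of 740 bp, 27.3% wider than 1 kb and 12.8% scoring at least 500, where the members had 125, 750 bp, 28.2% and 13.2%. Their median gap was 5305 bp against 4320 bp. In regions of at least 10 joined peaks they had 33.7% of their peaks, between the 22.7% of all other bins and the 45.3% of the members. The limit of 450 therefore divides a continuous range of counts.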

How the data were processed

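ATAC-seq libraries of wild-type embryos at 4 hpf were made with a Nextera kit and sequenced as 150 bp paired-end reads. Alignment by the authors was to Zv10 with Novoalign, for which the submitters' processing notes give version 3.8, and a read with several matches was placed at 1 of them at random. Technical replicates were merged (SAMtools). Only fragments of 30 to 120 bp entered peak calling, which used the Multi-Replica Macs ChIPSeq Wrapper (cutoff 2) on both replicates together, scaled to the smaller depth. The deposited score of each peak was used as it stands. The stated setting for duplicates is --nodup, while the names of the peaks carry nodedup, so whether duplicates were removed is unclear. The remaining value columns hold only 0 and were not used.

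Summits were counted in 5 Mb bins, and a peak was assigned to a bin by its summit. A peak was interior when both its edges lay over 1 Mb from the ends. The last incomplete bin was left out, and assembly gaps were ignored. Starts are counted from 1. The rule for named places was every peak-rich bin, its highest-scoring member, the 3 widest members, the fullest 100 kb window of the 3 bins with the most summits and the 3 bins just outside the limit. Genes nearest to these places were not analysed here. The members, measures and limits were chosen with earlier results of these data known. The binning was tested on simulated data. Alternatives changed the limit, the start of bins, the distance from the ends, the scores counted and the bins compared. Python 3.11.15 was used with numpy 2.4.6, pandas 2.3.3, matplotlib 3.10.9 and scipy 1.17.1.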

Additional observations from a re-analysis of the deposited data

How the results depend on the processing

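The number of peak-rich bins was 17 and became 32 with a limit of 400 and 7 with a limit of 500, and the members numbered 14035 and 3500, which follows from the limit itself. With a minimum score of 40, 13 of the 17 bins remained, without those on chromosomes 5, 7, 12 (10 to 15 Mb) and 18 (20 to 25 Mb). The limit stayed at 450 there, so a loss of bins near it follows from the setting. With bins shifted by 2.5 Mb, 13 bins with 6438 members reached the limit, so the set depends on where bins start. The difference in median gap between bins, -2705 bp, was -1520 bp against only the bins with 300 to under 450 summits. Widths and the share of peaks wider than 1 kb were higher in the peak-rich bins under all 22 alternatives. Among these was leaving out each of the 11 chromosomes in turn. The differences were 20 to 40 bp and 2.18 to 4.22 percentage points. Coverage was also higher under all 22, by 2.70 to 5.37 percentage points, which follows in part from the count that chose the bins. The difference in median score ran from -7 to 0, reaching 0 against other bins of the same chromosomes. The difference in the spread of log2 scores changed sign in 10 of 22 alternatives and ran from -0.12 to 0.09, so it has no direction. The share scoring at least 500 was 1.88 points lower, but 0.39 and 0.41 points higher without chromosome 9 and without chromosome 12. Unevenness was higher by 0.29, but stood at -0.20 with the limit of 500. Choosing bins by interior density, and leaving out the first bins of chromosomes 9, 12 and 22, were added after seeing the data. No paired analysis was possible because the list pools the replicates, and for the same reason no replicate could be left out. Gene and sequence content was planned and not run, as no sequence or annotation of Zv10 was used. The number of open places that escaped detection depends on depth, which is unknown.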
